A study of Mus musculus with 8 samples.

Results

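The replication-dependent histone genes supply the histones that package newly made DNA. They were taken here as every row of the deposited expression table whose symbol starts with Hist1h, Hist2h, Hist3h or Hist4h, 63 of 15995 listed genes. The rule reads symbols and no measured value. By class, 6 encode the linker histone H1, 15 encode H2A, 17 encode H2B, 12 encode H3 and 13 encode H4, and 1 of the H2B rows, Hist3h2bb-ps, is annotated as a pseudogene. Of the 63, 56 reached 1 FPKM (fragments counted for a gene, scaled by transcript length and by the mapped fragments of the library) in at least 4 of the 8 libraries and were tested with 11395 genes in all. The other 7 took 0.0549% of the summed histone signal.

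Total RNA came from the epidermis of newborn C57BL/6J mice, peeled from skin after trypsin-EDTA treatment. The compared groups were 4 ZFP750-/- libraries (KO 1 to KO 4) and 4 wild-type libraries (WT 1 to WT 4), numbered here in order of deposition. ZFP750 is a zinc finger transcription factor known for promoting the terminal differentiation of keratinocytes. The labels name no other allele or agent, and they do not say which part of Zfp750 was removed, whether the deletion was restricted to a cell type, or whether pups were pooled. Nothing in the labels ties a library to a separate pup or litter, so p-values measure the spread between these libraries, which may in part be technical. The sample titles also carry a code, 11, 14 or 44, whose meaning the labels do not give. Code 11 is borne by KO 1 and WT 4, code 14 by KO 2 and WT 3, and code 44 by KO 3, KO 4, WT 1 and WT 2.

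A nucleosome wraps DNA around an octamer of H2A, H2B, H3 and H4, and H1 binds the linker DNA between nucleosomes. The genes of this family are switched on together in S phase, when replicating chromatin needs new histones. Their mRNAs as a rule have no poly(A) tail and end just past a short stem-loop, which the stem-loop binding protein SLBP holds during processing, translation and decay. In the epidermis the cycling cells lie mainly in the basal layer and in hair follicles. These libraries were made after ribosomal RNA depletion without poly(A) selection, a preparation that keeps mRNAs without a tail.

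The stem-loops are shown because they are the element that sets these mRNAs apart from most other mRNAs. In GENCODE M21 models (mouse, GRCm38, the same assembly as mm10), a stem of 6 base pairs around a loop of 4 bases was found after the stop codon in 44 of the 63 members. The search required full pairing, a stem that starts with GG and a loop that starts with T. All matches hold these letters by choice, and other variants would be missed. Of the 19 members without a match, 14 have models with fewer than 16 bases after the stop codon, too short to hold a stem-loop. The 44 stem-loops fell into 8 sequences. One of them was shared by 24 members of the H1, H2A, H2B and H3 classes, and it occurred in no H4 gene. Another was found in 7 genes, all of them H4. The lines below give 1 member for each of the 8 sequences, with the 16 bases of stem and loop in capitals and 5 bases on either side, read 5′ to 3′ on the coding strand.
Hist1h3a (chr13:23761885-23761910, minus strand): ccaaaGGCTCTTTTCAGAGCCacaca
Hist1h4h (chr13:23531453-23531478, plus strand): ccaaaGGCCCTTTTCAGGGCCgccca
Hist1h3e (chr13:23561898-23561923, minus strand): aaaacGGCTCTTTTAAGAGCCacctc
Hist1h4j (chr13:21735432-21735457, plus strand): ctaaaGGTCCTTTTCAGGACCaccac
Hist2h4 (chr3:96262934-96262959, minus strand): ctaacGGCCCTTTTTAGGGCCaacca
Hist1h3g (chr13:23535884-23535909, plus strand): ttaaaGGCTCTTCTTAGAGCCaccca
Hist2h2ac (chr3:96220413-96220438, minus strand): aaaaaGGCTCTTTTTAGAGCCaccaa
Hist1h4a (chr13:23760795-23760820, minus strand): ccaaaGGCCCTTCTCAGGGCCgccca

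The members lie in clusters. There are 49 on chromosome 13 (chr13:21715763-23934851), 10 on chromosome 3 (chr3:96219865-96270132), 3 on chromosome 11 and 1, Hist4h4, on chromosome 6. In the annotation 61 of the 63 have a single exon in the model used. The classes differ in how alike their copies are. The 13 H4 genes encode 1 protein of 103 residues and the 12 H3 genes encode 2 proteins. The 15 H2A genes encode 8 proteins, the 16 coding H2B genes 10 and the 6 H1 genes 6. More than 50% of the 75-base windows, the read length, were shared with another gene in 25 members, and 6 members shared none. How fragments were divided among such copies is not known from the labels, so class sums are firmer than single copies only where the sharing lies within a class. Some lies outside it. Hist2h3c1 shares 100% of its windows with the annotated gene Gm20634, Hist3h2a 30.65% with Trim17, and the H1 gene Hist1h1e 22.74% with Hist1h2be. The annotation holds 70 genes with these prefixes; 7 of them were not analysed here.

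Promoters were compared by letters alone. RefSeq promoter sequence (GRCm38.p6, 250 bases before the start and 50 after) was matched for 57 members. On either strand CCAAT occurred in 84.2% of the 57 against 37.4% of 32851 promoters of the same length. The 32851 include every listed promoter of a gene, whereas each member gave only its first, here and for the strings below. All 45 matched H1, H2A, H2B and H3 promoters held it, and 3 of 12 H4 promoters did. TATAAA was in 56.1% against 13.6%. ATTTGCAT, the octamer, was in 6 of 15 H2A and 5 of 14 H2B promoters and in none of the other classes, against 1.74% of all promoters. AAACACA, a sequence known from H1 promoters, was in 5 of 6 H1 promoters against 7.18% of all. The capitals in the 3 promoters below mark these 4 letter strings, on either strand. The Hist1h1c promoter (H1f2 in RefSeq) holds CCAAT and AAACACA, that of Hist1h2bb (H2bc3) holds CCAAT, ATTTGCAT and TATAAA, and that of Hist1h4j (H4c11) holds TATAAA alone. Some H2A and H2B genes start close together on opposite strands, such as Hist1h2ak and Hist1h2bn, 296 bases apart. Their promoter sequences overlap, so the same match can count for both genes. A letter match is a description and shows no binding.
Hist1h1c (chr13:23738557-23738856, plus strand): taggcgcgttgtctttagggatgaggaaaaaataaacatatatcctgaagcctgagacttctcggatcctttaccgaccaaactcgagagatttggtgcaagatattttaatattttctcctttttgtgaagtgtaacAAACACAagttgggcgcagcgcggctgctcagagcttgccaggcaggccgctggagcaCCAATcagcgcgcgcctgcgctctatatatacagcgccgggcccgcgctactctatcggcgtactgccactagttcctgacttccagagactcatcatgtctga
Hist1h2bb (chr13:23746484-23746783, plus strand): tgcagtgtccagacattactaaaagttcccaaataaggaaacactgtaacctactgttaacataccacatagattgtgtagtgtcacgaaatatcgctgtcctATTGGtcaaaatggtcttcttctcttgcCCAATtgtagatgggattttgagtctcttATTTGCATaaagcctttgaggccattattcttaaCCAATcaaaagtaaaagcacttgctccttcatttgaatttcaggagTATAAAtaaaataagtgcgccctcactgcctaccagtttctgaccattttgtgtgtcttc
Hist1h4j (chr13:21734784-21735083, plus strand): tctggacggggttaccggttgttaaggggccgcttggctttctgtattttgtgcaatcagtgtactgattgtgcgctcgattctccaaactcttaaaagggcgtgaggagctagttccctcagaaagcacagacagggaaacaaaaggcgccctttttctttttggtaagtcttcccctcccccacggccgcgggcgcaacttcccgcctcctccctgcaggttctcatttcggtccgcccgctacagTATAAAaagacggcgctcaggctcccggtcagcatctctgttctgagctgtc

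The targeted gene fitted the labels: Zfp750 stood between 1.53 and 2.68 FPKM in the KO libraries and between 81.6 and 119 FPKM in the WT libraries (log2 difference -4.996 ± 0.163 SE, limma adjusted p = 4.49e-07). Summed FPKM per library ranged from 483416 to 577300, and read depth is unknown, since only FPKM values were used. The basal keratinocyte markers of the labelled tissue were all tested, 9 of 9, with none at 0. The differentiation genes Krt1, Krt10 and Flg2, and the ribosomal precursor Rn45s, have a value of exactly 0 in part of the libraries and very high values in the rest, so none of these 4 was tested.

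Histone mRNA was abundant in these newborn epidermis libraries and its level varied widely from library to library, in both genotypes. Summed over the 63 members it was 3628, 4842, 2584 and 1465 FPKM in KO 1 to KO 4, and 1897, 2675, 3110 and 5763 FPKM in WT 1 to WT 4. WT 4 and KO 2 were the highest and KO 4 and WT 1 the lowest, so the genotypes overlapped. The KO mean was 3130 ± 1443 FPKM and the WT mean 3362 ± 1678 FPKM (SD, n = 4 each). As a share of all summed FPKM, histone genes ran from 0.287% in KO 4 to 1.07% in WT 4. A few members carried most of this: the 5 highest made up 33.0% of the summed mean and the 10 highest 53.3%, while Hist1h4h alone made up 8.80%.

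**Figure D1:**
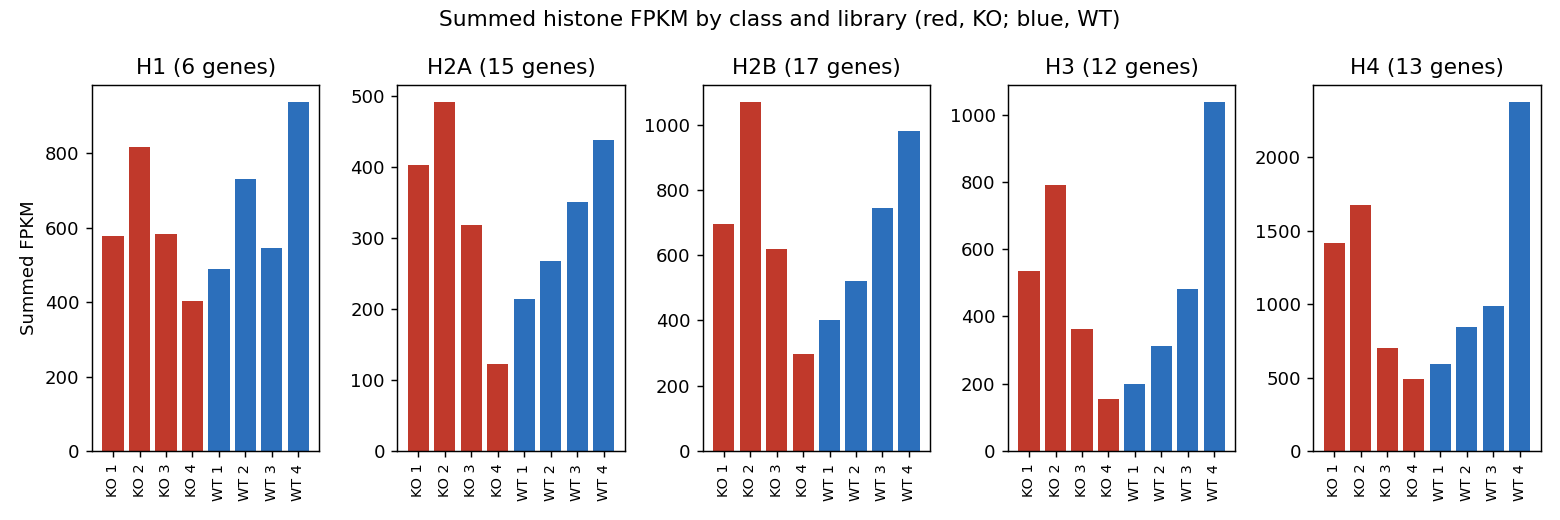
Summed FPKM (vertical axis, from 0, a separate scale for each panel) of the H1, H2A, H2B, H3 and H4 genes in each of the 8 libraries; red bars are KO and blue bars WT, 1 bar per library. KO 4 has the lowest bar in all 5 panels, and the highest bar is KO 2 or WT 4.

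Each class was lowest in KO 4 and highest in KO 2 or WT 4, and H1 varied least. For H4, summed FPKM was 1416, 1676, 701 and 488 in KO 1 to KO 4 and 594, 842, 990.1 and 2373 in WT 1 to WT 4, a ratio of highest to lowest of 4.86. H3 spanned a ratio of 6.67, from 155 FPKM in KO 4 to 1036 FPKM in WT 4. The ratios were 4.01 for H2A and 3.60 for H2B. H1 ran from 403 FPKM in KO 4 to 936 FPKM in WT 4, a ratio of 2.33. Within the histone total, H1 took 15.9% to 17.5% in KO 1, KO 2, WT 3 and WT 4 and 22.5% to 27.5% in KO 3, KO 4, WT 1 and WT 2. H3 took 10.5% to 11.7% in KO 4, WT 1 and WT 2 and 14.1% to 18.0% in the other 5 libraries.

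By genotype alone, no replication-dependent histone gene passed as changed in these libraries. None of the 56 tested members reached a limma adjusted p of 0.05, where 15.7% of the 11395 genes did (6.72% higher and 8.94% lower in KO). None passed at an unadjusted p of 0.05 either, where 28.2% of all genes did. In none of the 56 did the KO and WT libraries separate without overlap, against 21.3% of all genes. The smallest unadjusted p was 0.0813 and the smallest adjusted p 0.242. Differences lay above 0 for 17 members and below 0 for 39, with a median of -0.11 against 0.01 over all genes tested, all on the log2(FPKM + 1) scale. No member differed by 1 or more on that scale. With the title code as a block in the fit 1 of the 56 passed, Hist1h4j, lower in KO (adjusted p = 0.0410), where 19.8% of all genes did.

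The spread between libraries limits this comparison. The median SE was 0.48 for the histone genes against 0.17 over all genes, and the 95% interval lay within -1 to 1 on the log2 scale for 16 of 56 members. For the other 40, a change of 2-fold in at least one direction was within the interval. The sign of the median depended on single libraries: it was 0.28 without KO 4 and -0.37 without KO 2. With limma's array weights, which give less weight to libraries that fit poorly, it was 0.47, and 47 of the 56 differences lay above 0. None of the 56 passed in that fit, 4 did unadjusted, and 32.2% of all genes passed.

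**Figure D2:**
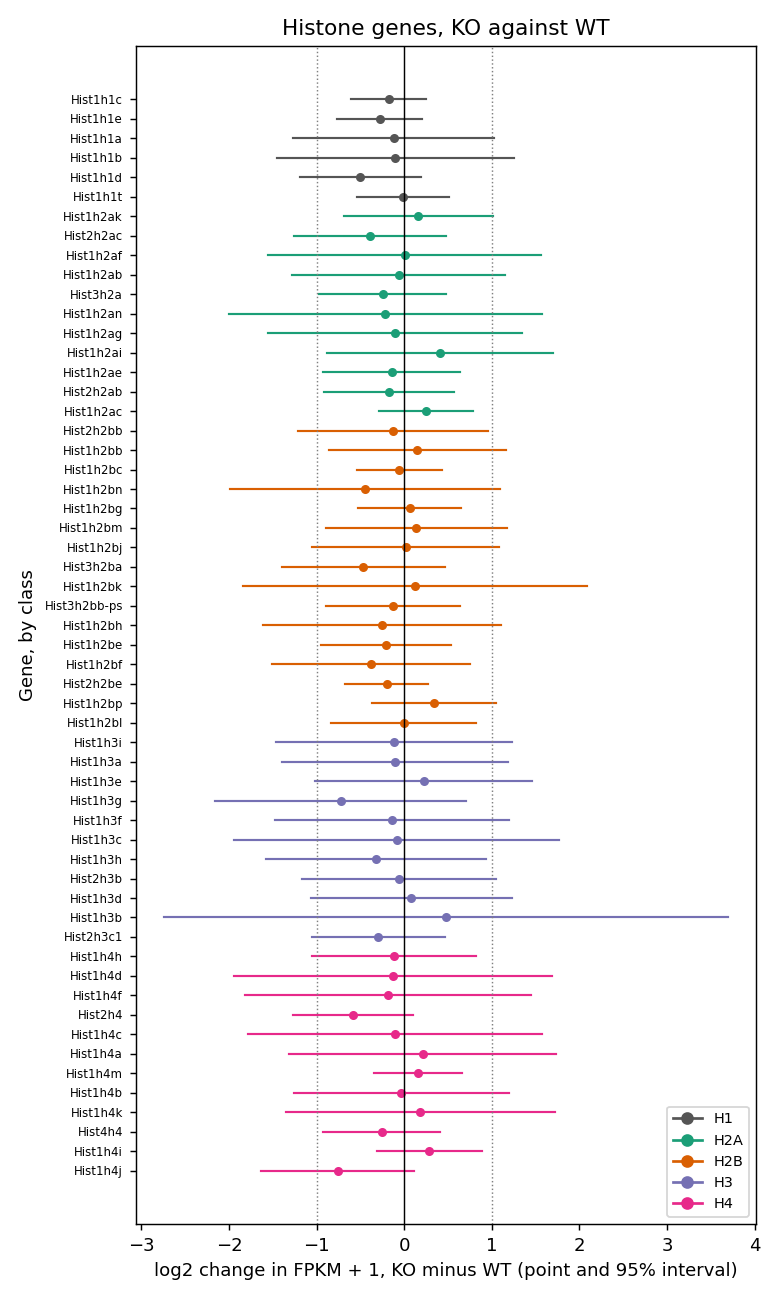
Log2 difference in FPKM + 1 between KO and WT (horizontal axis; points, with 95% intervals as lines) for the 56 tested histone genes, coloured by class; dotted lines mark -1 and 1. All 56 intervals include 0, and 16 lie within -1 to 1.

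Among the H1 genes, Hist1h1c and Hist1h1e, somatic H1 subtypes, were the most abundant and among the steadiest members. Hist1h1c stood at 171, 262, 200.3 and 199.9 FPKM in KO 1 to KO 4 and at 214, 302, 175 and 259 FPKM in WT 1 to WT 4. Its libraries overlapped fully and differed by -0.18 ± 0.19 (log2, KO minus WT, ± SE; adjusted p = 0.592). Hist1h1e stood at 141, 186, 175 and 127 FPKM and 156, 218, 141 and 266 FPKM in the same orders. WT 4 was its highest library and KO 4 its lowest, and the difference was -0.28 ± 0.22 (adjusted p = 0.442). Hist1h1a, another somatic subtype, behaved differently, at 122, 151, 84.6 and 32.4 FPKM in KO and 46.4, 90.1, 91.2 and 188 FPKM in WT. KO 4 and WT 1 were its lowest libraries, and its difference of -0.12 ± 0.51 was small beside a 95% interval of -1.27 to 1.02. Of the 6 H1 genes Hist1h1d had the largest difference, -0.50 ± 0.31 (adjusted p = 0.332), from 32.9 ± 13.8 FPKM in KO and 46.5 ± 17.3 FPKM in WT (SD, n = 4 each). Its highest library was WT 4 at 70.2 FPKM and its second highest KO 2 at 52.8 FPKM, so the groups overlapped.

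H2A signal came mostly from Hist1h2ak and Hist2h2ac. Hist1h2ak stood at 120.3, 162, 99.4 and 45.8 FPKM in KO 1 to KO 4 and 55.1, 76.5, 107 and 125 FPKM in WT 1 to WT 4, with KO 4 and WT 1 low in either group (difference 0.16 ± 0.38, adjusted p = 0.820). Hist2h2ac was at 55.9, 125, 52.5 and 31.97 FPKM and 49.1, 67.6, 103 and 104 FPKM. KO 2 was its highest library of all, while the other 3 KO libraries lay at or below 55.9 FPKM (difference -0.39 ± 0.39, adjusted p = 0.560). Hist1h2af, whose windows were 70.5% shared with other genes, followed another order: 74.8 FPKM in KO 1, 25.4 FPKM in KO 2, 57.3 FPKM in KO 3 and 4.56 FPKM in KO 4, with WT libraries between 22.5 and 40.4 FPKM. The largest H2A difference was that of Hist1h2ai, at 16.2, 18.1, 9.46 and 1.504 FPKM in KO and 3.72, 6.62, 8.37 and 7.23 FPKM in WT. Its difference was 0.41 ± 0.57 (adjusted p = 0.695), and KO 4 lay below every WT library while KO 1 to KO 3 lay above them. Without KO 4 it passed (1.06, adjusted p = 0.0266), where 20.1% of all genes did, and 89.3% of its windows were shared with other genes.

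Among H2B genes, Hist2h2bb was the third most abundant member of the family. It stood at 259.7, 340.3, 209.7 and 64.7 FPKM in KO 1 to KO 4 and 132, 168, 233 and 333 FPKM in WT 1 to WT 4, from which the group means were 219 ± 116 and 217 ± 88.5 FPKM (SD, n = 4 each). Hist1h2bb was at 169.8, 228, 122 and 54.9 FPKM and 63.7, 94.8, 161 and 177 FPKM. In both genes KO 4 and WT 1 were lowest and KO 2 highest, and the differences were -0.13 ± 0.48 and 0.15 ± 0.45 (adjusted p = 0.893 and 0.865). Hist1h2bc did not share that order, at 39.9, 71.5, 60.5 and 78.02 FPKM and 77.6, 67.97, 49.7 and 60.5 FPKM: KO 4 and WT 1 were its highest libraries and KO 1 its lowest (difference -0.06 ± 0.22, adjusted p = 0.893). On chromosome 11, Hist3h2ba ran from 7.82 FPKM in KO 4 to 45.5 FPKM in WT 4 and had the largest H2B difference, -0.47 ± 0.41 (adjusted p = 0.511). Its neighbours Hist3h2a and Hist3h2bb-ps ran from 15.99 to 54.9 FPKM and from 6.74 to 20.2 FPKM.

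The H3 genes showed the widest library range. Hist1h3i, the highest of them, stood at 114, 147, 77.7 and 21.04 FPKM in KO 1 to KO 4 and 36.1, 70.8, 100.6 and 151 FPKM in WT 1 to WT 4. Hist1h3a was at 98.5, 88.6, 39.9 and 22.2 FPKM and 30.2, 42.1, 51.6 and 159.6 FPKM, so that WT 4 was more than 3 times any other WT library. Hist1h3e was at 77.7, 100.8, 32.97 and 42.6 FPKM and 23.2, 33.5, 48.5 and 154 FPKM, with WT 4 again the highest. The differences of these 3 genes were -0.12 ± 0.60, -0.11 ± 0.57 and 0.22 ± 0.55, with adjusted p of 0.921, 0.927 and 0.831. The H3 gene with the largest difference was Hist1h3g, -0.72 ± 0.64 (adjusted p = 0.508), from 46.04, 102, 35.7 and 9.83 FPKM in KO and 32.7, 41.4, 82.4 and 119 FPKM in WT. Here KO 2 lay above 3 of the 4 WT libraries. Hist1h3b, chosen after its values were seen, varied most: 47.5 FPKM in KO 2 and 36.9 FPKM in WT 4, 0.866 FPKM in KO 1, and no value in KO 4 or WT 1. It shares 58.6% of its windows with other genes, and how fragments were divided between these copies was not tested.

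The H4 genes all encode the same protein, and their levels spread from under 1 FPKM (Hist1h4n) to 286 FPKM (Hist1h4h), averaged over the 8 libraries. Hist1h4h stood at 437, 361, 189 and 131 FPKM in KO 1 to KO 4 and 157, 259, 289.8 and 462 FPKM in WT 1 to WT 4 (means 279.6 ± 143 and 292 ± 126 FPKM, SD, n = 4 each). Hist1h4d was at 255, 252, 48.99 and 47.7 FPKM and 43.9, 68.9, 150 and 474 FPKM. Its 4 libraries of title code 44 lay between 43.9 and 68.9 FPKM and the other 4 between 150 and 474 FPKM. Hist1h4f was at 163, 321, 89.2 and 29.4 FPKM and 77.3, 65.7, 126 and 367 FPKM, with KO 4 lowest and WT 4 highest. None of the 3 passed by genotype (differences -0.12 ± 0.42, -0.13 ± 0.81 and -0.19 ± 0.73; adjusted p = 0.885, 0.937 and 0.896), with intervals reaching past 1 in at least one direction for each. Hist4h4 on chromosome 6 ran from 16.1 FPKM in KO 4 to 49.9 FPKM in WT 4 (difference -0.26 ± 0.30).

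Hist1h4j, a copy of low abundance, had the largest difference of all members. It was at 2.09, 6.07, 1.37 and 0.863 FPKM in KO 1 to KO 4 and 2.78, 3.66, 5.93 and 5.49 FPKM in WT 1 to WT 4. KO 1, KO 3 and KO 4 lay below every WT library and KO 2 above them all. The difference was -0.76 ± 0.39 (adjusted p = 0.242). It was the 1 member to pass with the title code as a block, and it also passed without KO 2 (-1.15, adjusted p = 0.0291), where 10.8% of all genes did. Hist1h4j shares 21.9% of its windows with other genes, most with Hist1h4h, which is many times more abundant, and the bearing of this on its value was not tested.

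**Figure D3:**
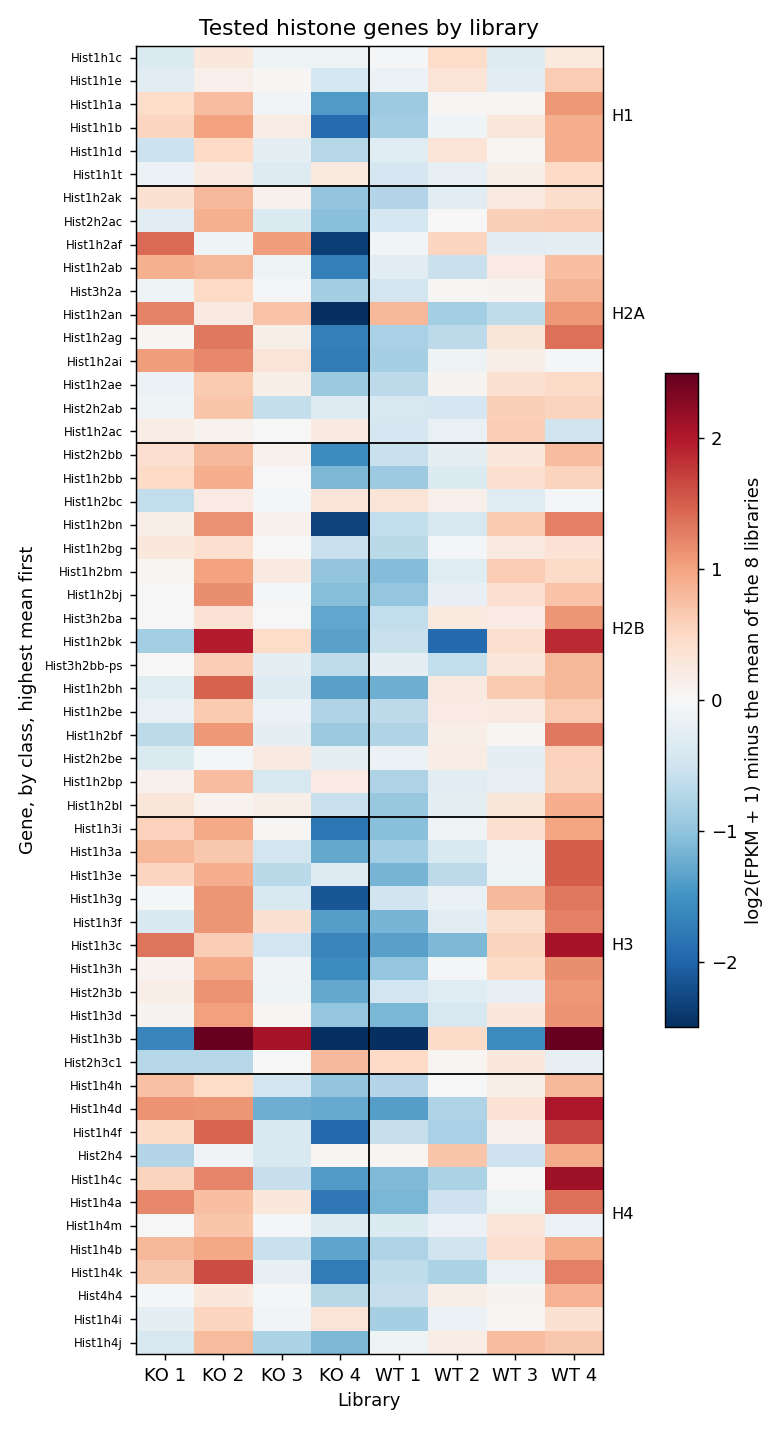
Each of the 56 tested histone genes (rows, by class, highest mean first) in each library (columns); colour is log2(FPKM + 1) minus the gene's mean over the 8 libraries, with differences beyond 2.5 drawn at the end of the scale. KO 4 and WT 1 are blue and KO 2 and WT 4 red through most rows, while Hist1h1c, Hist1h2bc and Hist2h2be stay pale.

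The shared order of libraries was the main feature of these genes. The highest library was WT 4 or KO 2 in 49 of the 56 tested members, which is 87.5%, against 28.9% of all genes tested. The lowest was KO 4 in 38 members and WT 1 in 10, together 85.7% against 41.3% of all genes. KO 4, WT 1 and WT 2 were the 3 lowest libraries in 21 members, 37.5% against 17.5%. The libraries named were picked from these same histone values, so shares above those of all genes were built in and test nothing. Members share libraries and, in part, sequence, so these shares describe 8 libraries and are not counts of independent observations. KO 4, WT 1 and WT 2 also had the fewest genes at 1 FPKM or more, 10637, 10745 and 10889. The other libraries had 11193 to 11599, and the bearing of this on the order was not tested.

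The libraries that were low all bear title code 44, and the comparison of that code with codes 11 and 14, with genotype in the fit, was chosen after the values were seen. Differences lay below 0 for 51 of 56 members, with a median of -1.08 against -0.04 over all genes tested. At an unadjusted p of 0.05, 43 members passed, 42 of them lower in code 44, where 25.8% of all genes passed. This was not particular to histone genes. In the same limma contrast 36 of 39 S phase genes (median -0.73) and 29 of 30 mitosis genes (median -1.11) passed unadjusted. Of 23 genes for histone mRNA decay 4 did (median -0.10). After adjustment no member passed, and neither did any other gene (background 0%, smallest adjusted p = 0.0538). The largest differences were those of Hist1h4d, -2.31 ± 0.30, and Hist1h3c, -2.30 ± 0.35, the latter chosen after its values were seen. By summed histone FPKM the 4 libraries of code 44 were the 4 lowest, from 1465 in KO 4 to 2675 in WT 2, and the next was WT 3 at 3110. The calls turned on single libraries. Without KO 3, 32 members passed, and 14.6% of all genes did. Without KO 4, 3 members passed against 0.380% of all genes, and without WT 3, 2 members passed against 0.0174%. For the interaction of genotype and code, no member passed with limma at an adjusted or an unadjusted p of 0.05 (smallest adjusted p = 0.379). With 2 libraries of each genotype in either code group, this cannot show that the effect of genotype was alike in both.

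**Figure D4:**
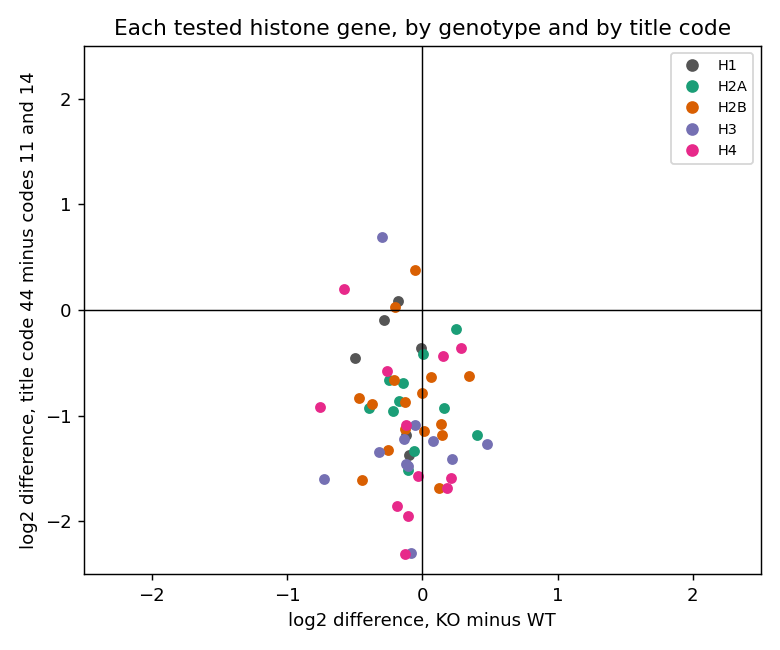
Log2 difference of each of the 56 tested histone genes between KO and WT (horizontal axis) and between title code 44 and codes 11 and 14 (vertical axis, genotype in the fit), on the same scale; colours are classes. By genotype all points lie within -1 to 1, and by code 51 of 56 lie below 0.

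Within code 44 alone, 2 libraries against 2, the median genotype difference was -0.23 and no member passed with limma; 1 passed unadjusted. Within codes 11 and 14 the median was -0.06, and Hist1h2ai passed as higher in KO (1.04, adjusted p = 0.0102), where 14.8% of all genes passed. Without KO 4, WT 1 and WT 2 no member passed, where 8.73% of all genes did, and the median was -0.28.

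Not every member followed the library order. In 4 tested members the libraries spanned less than 1 on the log2(FPKM + 1) scale: Hist1h1c, Hist1h2bc, Hist2h2be and Hist1h1t. The median span over the 56 was 2.26. Hist1h1t, the testis-specific H1, was lowest in WT 1 (0.406 FPKM) and highest in WT 4 (1.68 FPKM), libraries that were extreme in many members too. At such low values the log2(FPKM + 1) scale narrows the span, so the small span of Hist1h1t shows no departure from the order. Hist2h2be was low as well, at 1.87 to 4.45 FPKM. The 5 members with a code difference above 0 were Hist2h3c1 (0.69 ± 0.25), Hist1h2bc (0.38 ± 0.18), Hist2h4 (0.20 ± 0.30), Hist1h1c (0.09 ± 0.19) and Hist2h2be (0.02 ± 0.21), a set chosen by these values. Hist2h3c1 was low, at 0.643 to 3.76 FPKM, and shares 100% of its windows with another gene, so its value may not be its own. Hist2h4, an H4 gene on chromosome 3 that shares no window with another gene, stood at 82.6, 129, 105 and 141 FPKM in KO 1 to KO 4 and 141, 224, 95.5 and 263 FPKM in WT 1 to WT 4. In KO 4, where most members were lowest, it was at its KO maximum.

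These 5 members have long annotated models. The GENCODE model runs on for more than 500 bases after the stop codon in 15 members, all tested, and these include all 5. In the 15 the code difference had a median of -0.46, with 5 above 0, and the span over libraries had a median of 1.57. In the 40 tested members with 500 or fewer bases after the stop codon the code difference had a median of -1.16, with none above 0, and the span a median of 2.45. The 5 were picked by their code difference, so the counts above 0 restate that choice and test nothing. The groups overlap: Hist1h4d and Hist1h4c have long models and spans of 3.40 and 3.54. Polyadenylated histone mRNAs, which some of these genes are known to make as well, extend beyond the usual end at the stem-loop. FPKM is scaled by a model length, the authors' annotation is not known from the labels, and no test was made of this split.

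The machinery of histone mRNA was examined next. Of 29 tested genes for the synthesis and 3′ processing of histone mRNA, 2 rose in KO and none fell. This is 6.90%, close to the 6.72% of all genes that were higher in KO. Hinfp, a transcription factor of H4 genes, was at 5.67, 6.83, 5.79 and 6.09 FPKM in KO 1 to KO 4 and 3.64, 3.74, 4.86 and 3.85 FPKM in WT 1 to WT 4, every KO library above every WT library (difference 0.50 ± 0.14, adjusted p = 0.0339). Snrpd3, an Sm protein present in the U7 particle as well as in spliceosomal particles, was at 31.8, 31.4, 29.9 and 33.05 FPKM and 18.2, 20.3, 19.6 and 29.2 FPKM, again without overlap (0.53 ± 0.15, adjusted p = 0.0376). Mblac1, a nuclease known for histone pre-mRNA cleavage, did not pass (-0.56 ± 0.19, adjusted p = 0.0770). Of 23 genes for histone mRNA decay, 1 rose, 4.35% against the same 6.72%: Lsm3, of the Lsm ring that binds RNA 3′ ends, at 0.74 ± 0.22 (adjusted p = 0.0466). Eri1, the exonuclease that trims the stem-loop end, and Zcchc6, a uridylyltransferase, did not pass, at 0.43 ± 0.15 and 0.30 ± 0.12 (adjusted p = 0.0813 and 0.118). These calls were near the threshold. Of the 8 fits that each left out 1 library, Hinfp passed in those without KO 4 and WT 3, Lsm3 in those without KO 4 and WT 4, and Snrpd3 in that without WT 4. In the other fits their adjusted p reached 0.103, 0.130 and 0.110.

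None of 30 genes for histone chaperones and chromatin assembly passed with limma, where 15.7% of all genes did. Unadjusted, 4 of the 30 passed, where 28.2% of all genes did. The smallest p was that of Ubn1, a subunit of the HIRA complex (-0.36 ± 0.11, adjusted p = 0.0534), followed by Set (0.48 ± 0.19, adjusted p = 0.124) and Daxx (0.27 ± 0.12, adjusted p = 0.152), chaperones of which the latter serves the variant H3.3.

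The replication-independent histones, which are as a rule made outside S phase too and from polyadenylated mRNAs, gave the histone calls of the fit by genotype alone. Of 11 tested, 2 fell and none rose, 18.2% against 8.94% of all genes lower in KO. H2afj, an H2A variant, was at 40.5, 54.2, 48.8 and 54.9 FPKM in KO 1 to KO 4 and 94.1, 94.8, 79.3 and 79.8 FPKM in WT 1 to WT 4. The groups did not overlap, and the difference was -0.80 ± 0.13 (adjusted p = 0.00290), passing in all 8 fits that left out 1 library. H2afy, which encodes macroH2A1, was at 68.9, 67.9, 64.6 and 52.2 FPKM and 88.1, 85.03, 76.7 and 86.5 FPKM, also without overlap (-0.41 ± 0.12, adjusted p = 0.0427), and passed in 1 of those 8 fits, that without WT 3 (adjusted p up to 0.119 in the others). The third smallest p was that of H1fx (0.49 ± 0.50, adjusted p = 0.567). Further members, H2afx, Cenpa and H3f3a, were chosen after their values were seen. H2afx, the H2A variant known for its phosphorylation at DNA breaks, was at 81.9, 87.8, 52.6 and 16.6 FPKM and 24.7, 39.4, 57.5 and 82.1 FPKM. Cenpa, the H3 variant of centromeres, was at 14.5, 16.5, 11.9 and 2.56 FPKM and 2.25, 4.38, 9.70 and 13.1 FPKM. Both were lowest in KO 4 and WT 1, as most replication-dependent genes were. H3f3a, which encodes H3.3, was at 657, 687, 682 and 627 FPKM and 718, 737, 514 and 739 FPKM and did not follow that order.

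Genes of S phase varied over the same libraries. The mean log2(FPKM + 1) of 39 tested S phase genes was 3.41, 3.40, 3.12 and 2.15 in KO 1 to KO 4 and 2.22, 2.48, 2.97 and 3.32 in WT 1 to WT 4. That of the 56 histone genes was 4.86, 5.49, 4.65 and 3.66 in KO and 4.07, 4.51, 4.87 and 5.60 in WT. KO 4, WT 1 and WT 2 were the 3 lowest libraries in both. By genotype none of the 39 S phase genes passed with limma, adjusted or unadjusted, where 15.7% and 28.2% of all genes did. The median difference of the 39 was 0.26. Mcm6, a subunit of the replicative helicase, had the smallest p (0.66 ± 0.32, adjusted p = 0.216), followed by the primase subunit Prim2 (0.46 ± 0.24, adjusted p = 0.256) and the sliding clamp Pcna (0.51 ± 0.29, adjusted p = 0.289). Slbp, which is in this list and among the processing genes, was at 18.9, 23.6, 20.2 and 17.7 FPKM and 10.6, 13.99, 15.3 and 23.98 FPKM (0.37 ± 0.22, adjusted p = 0.314). Of 30 mitosis genes 1 fell, 3.33% against 8.94% of all genes, the spindle checkpoint kinase Ttk (-0.65 ± 0.17, adjusted p = 0.0274), which passed in the fits without KO 3, KO 4 or WT 3 and reached an adjusted p of 0.0850 in the other 5. Smc2 and Mki67, the next by p, had differences of 0.54 ± 0.42 and 0.65 ± 0.51 (adjusted p = 0.448 and 0.455). With array weights 13 S phase genes (33.3%) and 11 mitosis genes (36.7%) passed as higher in KO, in a fit where 17.0% of all genes were called higher and 32.2% were called in either direction.

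**Figure D5:**
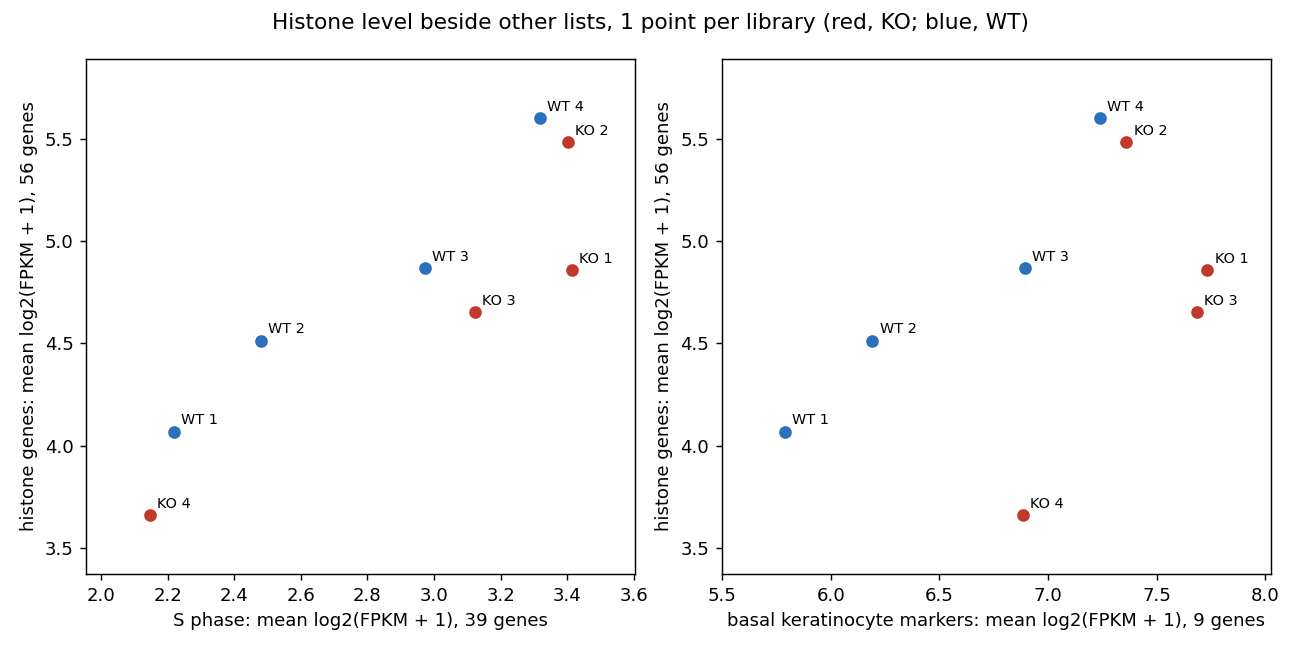
Mean log2(FPKM + 1) of the 56 tested histone genes (vertical axis) against that of 39 S phase genes (left) and 9 basal keratinocyte markers (right), 1 point per library, red for KO and blue for WT. KO 4, WT 1 and WT 2 are the 3 lowest in histone and S phase genes, whereas KO 4 lies near WT 3 in basal markers.

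Markers of cell types moved over the libraries as well. The mean log2(FPKM + 1) of the 9 basal keratinocyte markers ranged from 6.89 to 7.73 in KO and from 5.79 to 7.24 in WT, and 4 of the 9 rose in KO (44.4% against 6.72% of all genes) with none falling. Its lowest libraries were WT 1 and WT 2. For 8 melanocyte markers the mean ranged from 1.48 to 3.13 in KO and from 1.32 to 3.01 in WT, with none of the 8 passing at an adjusted or unadjusted p of 0.05 with limma; WT 1, KO 4 and WT 2 were lowest. For 13 tested hair follicle and matrix markers it ranged from 2.31 to 3.33 and from 2.03 to 3.35. Of these 13, 1 was lower in KO, 7.69% against 8.94% of all genes. Suprabasal keratinocyte markers, 7 of them tested, ran the other way over the libraries. Their mean was highest in WT 1 (9.92), KO 4 (9.91) and WT 2 (9.84) and lowest in KO 1 (9.32). Of these 7, 1 was lower in KO (14.3% against the same 8.94%). Of 6 Langerhans and myeloid markers tested 5 were lower in KO (83.3% against 8.94% of all genes, median difference -1.40). Their means were 0.519 to 0.894 in KO and 1.83 to 2.72 in WT. Of 3 T cell markers 1 was lower (33.3% against 8.94%). Of 6 fibroblast, 2 erythroid and 1 endothelial markers none passed with limma, adjusted or unadjusted, where 15.7% and 28.2% of all genes did. The part of any of these in the histone levels was not tested. In bulk samples fewer cells of a type and less RNA per cell cannot be told apart.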

How the data were processed

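Stranded paired-end libraries of rRNA-depleted total RNA were sequenced with 75-base reads, per the labels' protocols. The deposited values are FPKM made by the authors. The submitters' processing notes name mm10. Read depth, strand use, annotation, aligner and quantifier: not given in the sources used here. A missing value was taken as 0 (8 members lack a value in some library). Genes with FPKM of at least 1 in at least 4 of 8 libraries (3 of 7, 2 of 5 or of 4) were compared as log2(FPKM + 1), a scale that understates the change of low genes, with limma's trend method (limma 3.58.1, R 4.3.3). P-values were adjusted by Benjamini-Hochberg over all 11395 genes, threshold 0.05. The fit was tested on simulated data. Sequence features came from GENCODE M21 transcripts and RefSeq promoters with Python 3.11.15. Members and lists were chosen with earlier results of these data known. Of the listed genes, 30 of 33 for synthesis and processing and 12 of 21 replication-independent histones are in the table. Named genes were every member called, in each class the 3 with the highest mean and the one with the largest change, the Hist3 and Hist4 members, and in each list the called genes and the 3 smallest p; exceptions are stated. Fits within, with and without title codes, with other scalings, filters and pseudocounts, and without each library were run as alternatives.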

Additional observations from a re-analysis of the deposited data

Results flagged for a closer look

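Hist1h3a stood at 159.6 FPKM in WT 4, where the next of the 4 WT libraries was at 51.6 FPKM. The gap to the next library takes up more of the WT range than Dixon's critical value at 95% allows for 4 samples (0.829). Of 52 groups of libraries examined in this way, the named members and the class sums in either genotype, this was the 1 that passed, and chance gives about 1 in 20. Hist1h3a shares 38.5% of its 75-base windows with other genes.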

How the results depend on the processing

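Calls among the histone genes were few under every setting run. No member was called lower in KO except 1 with the title code as a block and 1 without KO 2 (range 0 to 1 over fits without 1 library), both Hist1h4j (19.8% and 10.8% of all genes passed there), and none higher except 1 within codes 11 and 14 and 1 without KO 4 (range 0 to 1), both Hist1h2ai (14.8% and 20.1%). The median difference ranged from -0.37 to 0.28 over fits without 1 library. For title code 44 against codes 11 and 14, none passed in the fit reported, 6 with median ratio scaling (2.28% of all genes) and 23 with array weights (8.01%), and 0 to 32 over fits without 1 library (0% to 14.6%). Signs of single members, none of which had passed, turned as follows; the cause was not tested. With array weights Hist1h1a was at 0.47, Hist2h2ac 0.19, Hist2h2bb 0.52, Hist1h3i 0.64, Hist1h3a 0.55, Hist1h3g 0.24, Hist1h4h 0.33, Hist1h4d 0.87 and Hist1h4f 0.88. Hist1h2af was at -0.0337 with a pseudocount of 0.1 and at -0.90 within code 44, where Hist1h2ai was at -0.23. Within codes 11 and 14 Hist1h1a was at 0.0527, Hist2h2bb 0.0922, Hist1h3i 0.0714, Hist1h3a 0.0382, Hist1h4h 0.12 and Hist1h4f 0.0894. Without KO 4, WT 1 and WT 2 together, Hist1h2bb was at -0.00688, Hist1h2bc 0.0236 and Hist1h3e -0.43. Over fits without 1 library the ranges were Hist1h1a -0.45 to 0.33, Hist1h2ak -0.0817 to 0.52, Hist1h2af -0.47 to 0.79, Hist1h2ai 0.08 to 1.06, Hist2h2bb -0.42 to 0.38, Hist1h2bb -0.13 to 0.55, Hist1h2bc -0.18 to 0.14, Hist1h3i -0.49 to 0.46, Hist1h3a -0.41 to 0.38, Hist1h3e -0.13 to 0.76, Hist1h4h -0.39 to 0.19, Hist1h4d -0.61 to 0.52, Hist1h4f -0.70 to 0.43 and Hist1h4j -1.15 to -0.51. Libraries could not be paired by replicate number, since the numbers in the titles of KO and WT share fewer than 2 values; the title code was the block used. Depth is unknown, so counting error could not be separated from other spread.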

Other observations

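H2A and H2B genes often lie head to head. In the annotation 9 pairs of members start within 500 bases of each other on opposite strands. All 9 join an H2A with an H2B gene, counting the pseudogene Hist3h2bb-ps beside Hist3h2a as one. Only part of the 9 pairs are given here. The 2 genes of these pairs were not equally abundant, taking means over the 8 libraries in FPKM, a unit per length. Hist2h2ac and Hist2h2be start 239 bases apart and had means of 73.6 and 2.74 FPKM. Hist1h2ac and Hist1h2bc start 251 bases apart and had means of 2.15 and 63.2 FPKM. For Hist1h2ak and Hist1h2bn, 296 bases apart, they were 98.9 and 58.6 FPKM, and for Hist1h2ai and Hist1h2bl, 279 bases apart, 8.90 and 1.05 FPKM. Hist2h2be, Hist1h2bc and Hist1h2ac have long models after the stop codon. Windows shared with other genes made up 0% of Hist2h2be, 19.5% of Hist2h2ac, 11.1% of Hist1h2ac and 27.1% of Hist1h2bc. In the pairs of Hist1h2ak and of Hist1h2ai these shares ran from 27.0% to 89.3%. The bearing of model length and of shared windows on the unequal means was not tested.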
